A study of Homo sapiens with 6 samples.

Results

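Caspases are proteases that are made as inactive precursors and cut one another, and then many cell proteins, during apoptosis. The initiators CASP8 and CASP10 are activated at death receptors such as FAS, where the related protein CFLAR (c-FLIP) limits their activation. CASP9 is activated on the apoptosome, which APAF1 forms after cytochrome c leaves the mitochondria, and CASP2 in a complex called the PIDDosome. CASP6 acts downstream as an effector, and CASP4 is an inflammatory caspase that senses bacterial lipopolysaccharide and has been linked to endoplasmic reticulum stress in human cells. The 8 genes CASP8, CASP10, CFLAR, CASP2, CASP9, APAF1, CASP6 and CASP4 are described here through all 31 Affymetrix probe sets whose platform annotation gives 1 of these symbols alone, out of 19064 probe sets with 1 gene.

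MM.1S, an established line of human multiple myeloma, was exposed for 3, 6 or 12 h to enzastaurin, a compound that inhibits protein kinase C beta. Cells left untreated were collected at those times too. Each combination had 1 array, which makes 6 arrays of 1 line. The labels state neither the dose nor a vehicle for the untreated cells, and do not say whether cultures were separate. Values are MAS5 intensities, the array's summary of a probe set's brightness, or log2 ratios of enzastaurin over untreated cells at the same time.

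The median intensity of the 6 arrays was 62.2 to 67.6. All 10 plasma cell markers checked passed the intensity filter (the brighter 50 percent of probe sets), with a summed intensity of 19322 to 25575 in untreated and 19071 to 22408 in enzastaurin cells. None of 10 T and NK cell markers and none of 8 monocyte markers passed it, and none of the listed markers was at 0 on every array. Summed intensities of the T and NK cell list were 278 to 302 and 284 to 327, and those of the monocyte list 128 to 177 and 158 to 190. Of the 5 stromal markers 2 passed, and the list summed to 233 to 337 and 258 to 326. The 2 erythroid markers with a probe set summed to 300.7 to 460 and 173 to 426, and 1 of them, HBB, passed. The ribosomal RNA probe sets parted the arrays in another way. Their mean log2 intensity was 3.39 untreated and 9.99 with enzastaurin at 3 h, 11.98 and 3.79 at 6 h, and 9.29 and 3.02 at 12 h. For ACTB, the log2 intensity of its 3' over its 5' probe set, a measure of RNA integrity, was 1.16 untreated and 0.57 with enzastaurin at 6 h, 1.60 and 0.86 at 12 h, and closer together at 3 h. For GAPDH the same measure was 0.28 untreated and 0.23 with enzastaurin at 3 h. It was 0.23 and -0.11 at 6 h, and 0.30 and 0.24 at 12 h. The part of these array differences in the results below was not tested beyond the alternatives named there.

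CASP8, the initiator caspase of death receptors, stood out among the 8 genes by a response that differed between times. CFLAR, CASP10 and CASP8 lie in this order as neighbouring protein-coding genes in the RefSeq table of GRCh38.p14. The 250 bases before the outermost CASP8 start are shown because CASP8 carries the main result, with matches of searched motifs in capitals. The first run in capitals is a GAS match (TTCNNNGAA) and the second an Sp1 box (GGGCGG). The sequence comes from RefSeq, build GRCh38.p14, chr2:201233213-201233462, plus strand:
CASP8 outermost start: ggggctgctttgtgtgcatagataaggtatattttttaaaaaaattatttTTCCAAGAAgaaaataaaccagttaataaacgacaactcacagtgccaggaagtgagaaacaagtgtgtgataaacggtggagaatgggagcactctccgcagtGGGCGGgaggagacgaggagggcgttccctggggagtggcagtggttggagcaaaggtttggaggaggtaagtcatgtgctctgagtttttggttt

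The brighter CASP8 probe set, 213373_s_at, had intensities of 597, 562 and 380 in untreated cells at 3, 6 and 12 h. With enzastaurin it had 399, 1011 and 1954. The enzastaurin array was thus the lower of the pair at 3 h and the higher at 6 h and 12 h, and at 12 h untreated cells had their lowest value and enzastaurin cells their highest. The second probe set, 207686_s_at, had 71.7, 122 and 60.3 in untreated cells and 40.0, 156 and 306 in enzastaurin cells. Both probe sets therefore gave the same order at every time, with enzastaurin over untreated at 0.668-fold and 0.557-fold at 3 h, 1.80-fold and 1.27-fold at 6 h, and 5.14-fold and 5.07-fold at 12 h. Across the 6 arrays their log2 intensities correlated at 0.94 (Pearson), a description of probe sets that share arrays. In bulk RNA, more CASP8 RNA per cell and more cells that make it cannot be told apart.

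**Figure D1:**
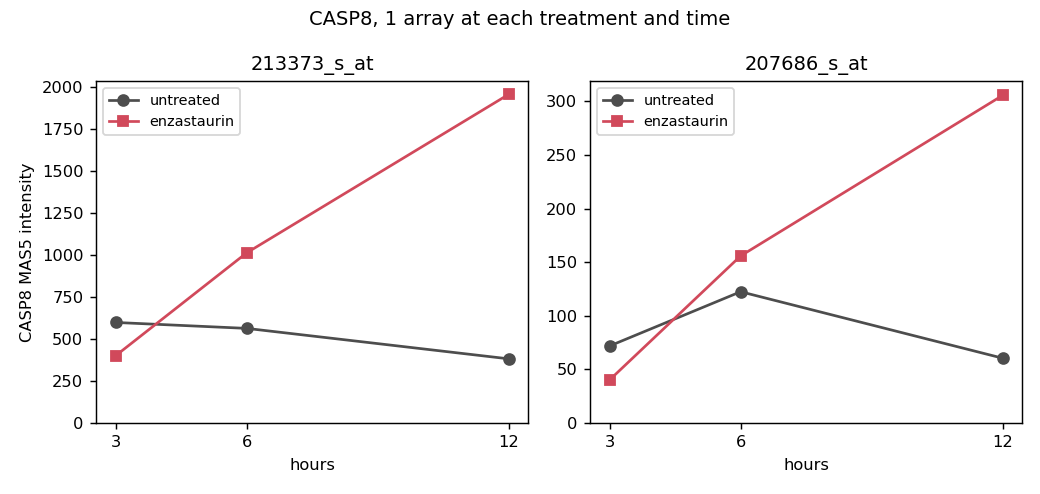
CASP8 MAS5 intensity (linear axis from 0) against hours for its 2 probe sets, untreated cells in grey and enzastaurin cells in red, each point 1 array. Enzastaurin cells lie below untreated cells at 3 h and above them at 6 h and 12 h, reaching 1954 and 306 at 12 h.

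The slope of the CASP8 log2 ratio was 1.47 per doubling of hours (SE 0.35, 3 time-matched ratios, adjusted p = 0.00525 in limma with Benjamini-Hochberg adjustment over 6838 genes, where under 0.05 counts as passing). Its ratio was -0.58 at 3 h, 0.85 at 6 h and 2.36 at 12 h, so the response rose with time. It was the 1 member of 7 tested that passed, where 1.43 percent of all genes passed in either direction and 0.512 percent upward. The CASP8 slope was among the earlier results known when the members were chosen, so this share lends it no support. The second probe set had a slope of 1.59 (SE 0.40) and passed too when every kept probe set was tested on its own (adjusted p = 0.00883 in limma). The slope fit had 1 residual degree of freedom and a prior variance with infinite degrees of freedom, so its errors come from other genes of like intensity. On simulated data this fit made more false calls than its threshold allows when the variance differed between genes, which bears on every slope call here. The CASP8 call ended with equal medians of the kept genes (adjusted p = 0.182 in limma) and with quantile normalization (0.0541). It also ended with a finite prior taken from the treatment fit, an alternative chosen after seeing the data (0.408). With every probe set tested on its own and no filter, neither CASP8 probe set passed (adjusted p = 0.0696 and 0.167 in limma). The slope of the gene stayed between 1.43 and 1.56 under all alternatives run for it. Those alternatives kept all 3 pairs and had no ribosomal RNA covariate, so how far the slope depends on a single pair or on ribosomal RNA was not tested.

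Averaged over the 3 times, CASP8 had a mean log2 ratio of 0.88 (SE 0.45, n = 3, 95% interval -0.10 to 1.86, adjusted p = 0.963 in limma), which did not pass. Without the 3 h pair it was 1.60 (SE 0.34, 2 pairs, adjusted p = 0.0112), where 3.61 percent of all genes passed, and no other member did. That fit also leans on other genes, with a prior of 16.86 degrees of freedom against 1 residual degree. Without the 12 h pair the mean was 0.13, and it was 0.50 once ribosomal RNA entered the fit as a covariate (adjusted p = 0.973). At each time, the array of the pair with more ribosomal RNA signal had less CASP8. In untreated cells ribosomal RNA was 3.39, 11.98 and 9.29 at 3, 6 and 12 h beside CASP8 intensities of 597, 562 and 380. In enzastaurin cells it was 9.99, 3.79 and 3.02 beside 399, 1011 and 1954.

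**Figure D2:**
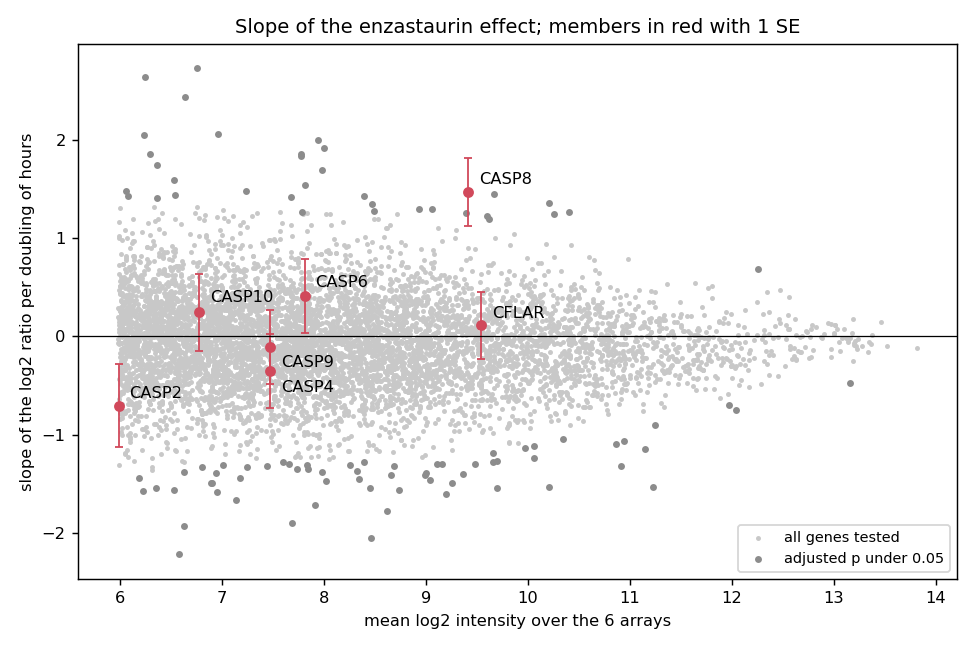
Slope of the enzastaurin log2 ratio per doubling of hours against mean log2 intensity for the 6838 genes tested (light grey), genes with an adjusted p under 0.05 in darker grey, and the 7 tested members in red with 1 SE. CASP8, at 1.47, is the only member among the genes past the test.

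CASP10, the second initiator caspase of death receptors, differed between its 4 probe sets. Its reference probe set, 210955_at, the brightest of the gene, had 83.2, 123 and 103 in untreated cells at 3, 6 and 12 h and 83.9, 135 and 146 with enzastaurin. The groups overlapped, and the mean log2 ratio was 0.21 (SE 0.30, n = 3, 95% interval -0.45 to 0.87, adjusted p = 0.997 in limma). Probe set 205467_at had 105, 84.3 and 110 in untreated cells and 58.3, 54.1 and 66.5 in enzastaurin cells. All its enzastaurin values lay below all its untreated values, and its log2 ratios of -0.85, -0.64 and -0.73 spread least of all CASP10 probe sets. When every kept probe set was tested on its own, it had an adjusted p of 0.811 in limma.

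The other CASP10 probe sets followed the sign order of CASP8, so they too were lower on the array of each pair with more ribosomal RNA signal. Probe set 210708_x_at had 105, 90.5 and 84.3 in untreated cells and 63.1, 167 and 161 in enzastaurin cells, with log2 ratios of -0.73, 0.88 and 0.94. The dimmest one, 211888_x_at, had -0.89, 1.72 and 0.71 and lay below the filter. Both carry the suffix x, which Affymetrix gives to probe sets that may also bind other transcripts. Pairwise correlations of the 4 probe sets over the 6 arrays ran from -0.38 to 0.86, so no single direction describes CASP10 here.

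CFLAR, which shares the domains of CASP8 but lacks protease activity, was measured by 11 probe sets, of which 8 carry the suffix x. The brightest, 209939_x_at, had 659, 977 and 709 in untreated cells and 610, 805 and 765 in enzastaurin cells. The groups overlapped, both were highest at 6 h, and the mean log2 ratio was -0.09 (SE 0.27, n = 3, 95% interval -0.68 to 0.49, adjusted p = 0.999 in limma). Probe set 211316_x_at had 586, 1008 and 501 in untreated cells and 403, 815 and 843 in enzastaurin cells. It lay lower with enzastaurin at 3 h and 6 h and higher at 12 h. Over the 11 probe sets the log2 ratio ran from -0.54 to 0.35 at 3 h, from -0.89 to 0.48 at 6 h and from -0.24 to 0.75 at 12 h. It was above 0 in 4, 4 and 8 of them. The median over the kept CFLAR probe sets had a mean log2 ratio of 0.24, the other sign from the brightest one, so the direction depends on the probe set. The CFLAR slope was 0.11 (SE 0.34, 95% interval -0.56 to 0.78), against 1.47 for CASP8.

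CASP9, the initiator caspase of the apoptosome, had 185, 222 and 187 in untreated cells on its brighter probe set, 210775_x_at, and 148, 216 and 128 with enzastaurin. The enzastaurin array was lower at each time, most at 12 h, but the groups overlapped through the 6 h array. The mean log2 ratio was -0.30 (SE 0.30, n = 3, 95% interval -0.95 to 0.34, adjusted p = 0.988 in limma). Its second probe set, 203984_s_at, had 122, 103 and 110 in untreated cells and 115, 93.5 and 134 in enzastaurin cells, with a log2 ratio of 0.29 at 12 h against -0.55 on the first. The CASP9 probe sets thus disagreed in sign at 12 h.

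APAF1, the scaffold of the apoptosome, was dim on all 3 probe sets, at intensities of 13.9 to 47.3, and none passed the filter, so it was not tested with the other members. The brightest by mean, 211554_s_at, had 46.4, 27.1 and 32.6 in untreated cells and 40.0, 36.9 and 47.3 in enzastaurin cells. Probe set 204859_s_at had 40.6, 13.9 and 24.5 and then 34.4, 36.7 and 45.6, which makes 2.65-fold at 6 h through its low untreated value. The third, 211553_x_at, had log2 ratios of -0.19, -0.56 and -0.36. Fitted without the filter, APAF1 had a mean log2 ratio of 0.26 (SE 0.36, n = 3, adjusted p = 0.993 in limma over 11964 genes). The 3 probe sets did not share a direction at 6 h or 12 h.

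CASP2, the caspase of the PIDDosome, was near or below the filter on its 5 probe sets. The brightest, 209812_x_at, had 42.9, 50.9 and 76.0 in untreated cells and 82.0, 86.7 and 54.7 in enzastaurin cells. It was higher with enzastaurin at 3 h and 6 h and lower at 12 h. Its geometric mean of 63.4 was just inside the filter of 63.3. The slope was -0.70 (SE 0.43, adjusted p = 0.567 in limma), which did not pass, and the other 4 probe sets, all below the filter, had log2 ratios between -0.97 and 0.58 in no shared order.

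CASP6, the effector caspase, had 313, 219 and 205 in untreated cells on its brightest probe set, 211464_x_at, and 193, 213 and 223 with enzastaurin. The log2 ratio was -0.70 at 3 h, -0.04 at 6 h and 0.12 at 12 h, each from 1 array on each side. Probe set 209790_s_at had 198, 168 and 205 in untreated cells and 145, 139 and 116 in enzastaurin cells. Its groups did not overlap, and its log2 ratios were -0.45, -0.27 and -0.82. The gene did not pass (mean log2 ratio -0.21, SE 0.31, n = 3, 95% interval -0.88 to 0.47, adjusted p = 0.999 in limma), and at 12 h its probe sets lay on opposite sides of 0.

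CASP4, the inflammatory caspase, had 145, 115 and 269 in untreated cells on probe set 209310_s_at and 230, 117 and 263 with enzastaurin. Its values were lowest at 6 h and highest at 12 h in both treatments, and the pair differed most at 3 h, at 1.59-fold. The mean log2 ratio was 0.22 (SE 0.30, n = 3, 95% interval -0.44 to 0.89, adjusted p = 0.996 in limma), and without the 3 h pair it was close to 0. The dim probe set 213596_at had 43.3, 35.0 and 42.7 in untreated cells and 32.1, 47.7 and 61.0 in enzastaurin cells.

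**Figure D3:**
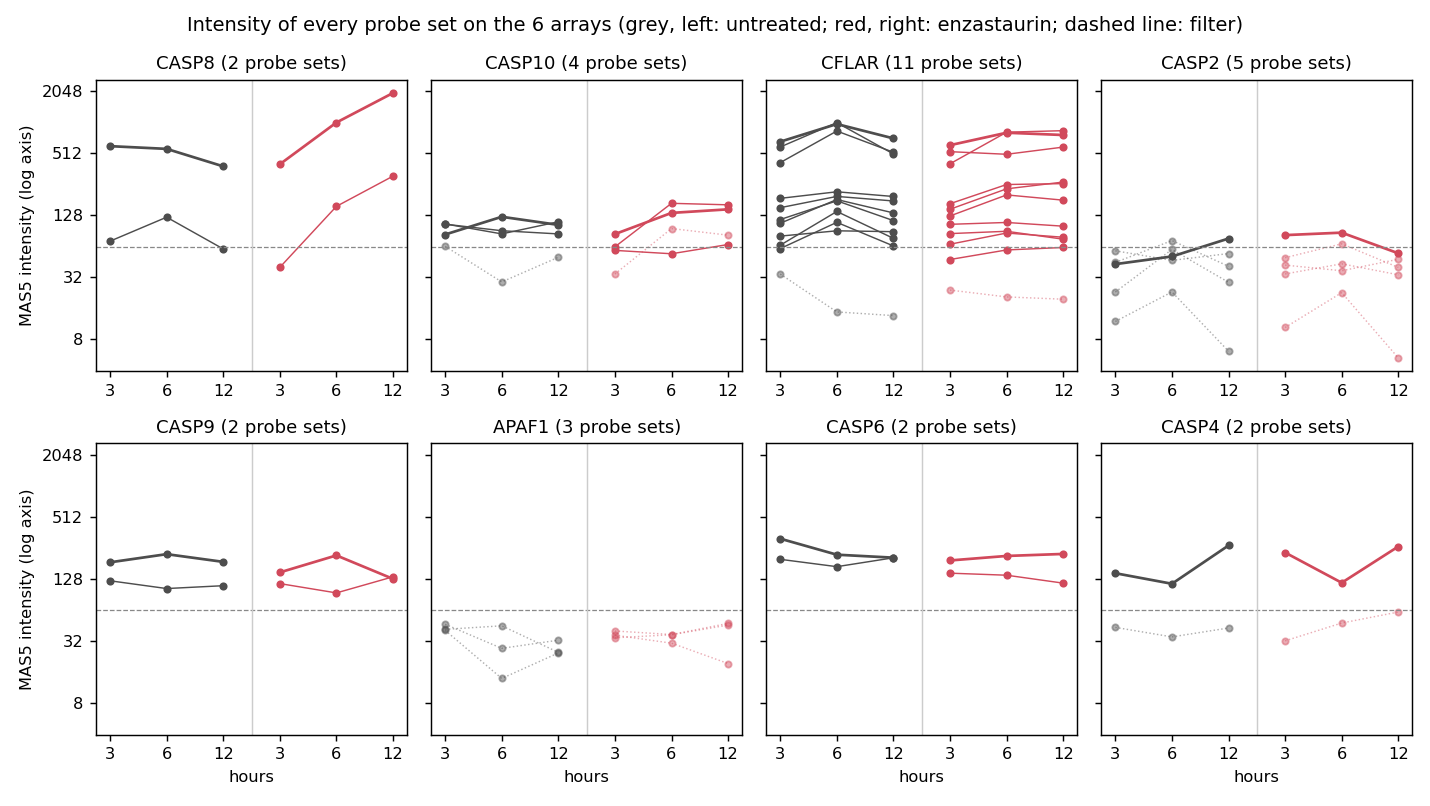
MAS5 intensity (log axis) of every probe set of the 8 genes on the 6 arrays, with hours on the x axis, untreated arrays in grey and enzastaurin arrays in red. Thick lines are the probe sets used for the gene, dotted lines lie below the filter (dashed line at 63.3). CASP8 with enzastaurin reaches the highest value, 1954.

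Over all 8 genes, none of the 7 tested passed for the mean over the 3 times, where 0.0585 percent of all genes passed (4 of 6838), and none had an unadjusted p under 0.05 in limma. Of the 31 probe sets, 0 were at least 2-fold apart at 3 h, where 7.16 percent of all probe sets with 1 gene were higher and 8.17 percent lower. At 6 h, 2 were at least 2-fold higher and 0 lower, against 12.6 and 7.36 percent, and these 2 were the dim 211888_x_at of CASP10 and 204859_s_at of APAF1. At 12 h, 2 were higher and 0 lower, against 9.3 and 10.6 percent, and both belonged to CASP8. The groups of 3 arrays did not overlap in 3 of the 31, 205467_at of CASP10, 209790_s_at of CASP6 and 210564_x_at of CFLAR. All 3 were lower with enzastaurin, where 5.47 percent of all probe sets were lower and 5.09 percent higher without overlap. The ratio had 1 sign at all 3 times in 9 of the 31, 2 upward and 7 downward. Over all probe sets with 1 gene it did so in 23.6 percent, 2280 upward and 2228 downward of 19064.

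The median log2 ratio of the 31 probe sets was -0.19 at 3 h, -0.02 at 6 h and 0.23 at 12 h, beside -0.05, 0.10 and -0.04 over all probe sets with 1 gene. The ratio was higher at 12 h than at 3 h in 20 of the 31, and in 49.2 percent of all probe sets with 1 gene. The 31 are not independent, since 11 of them measure CFLAR. Of the 31, 21 passed the filter, 10 of these for CFLAR, 3 for CASP10, 2 each for CASP8, CASP9 and CASP6, and 1 each for CASP2 and CASP4.

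**Figure D4:**
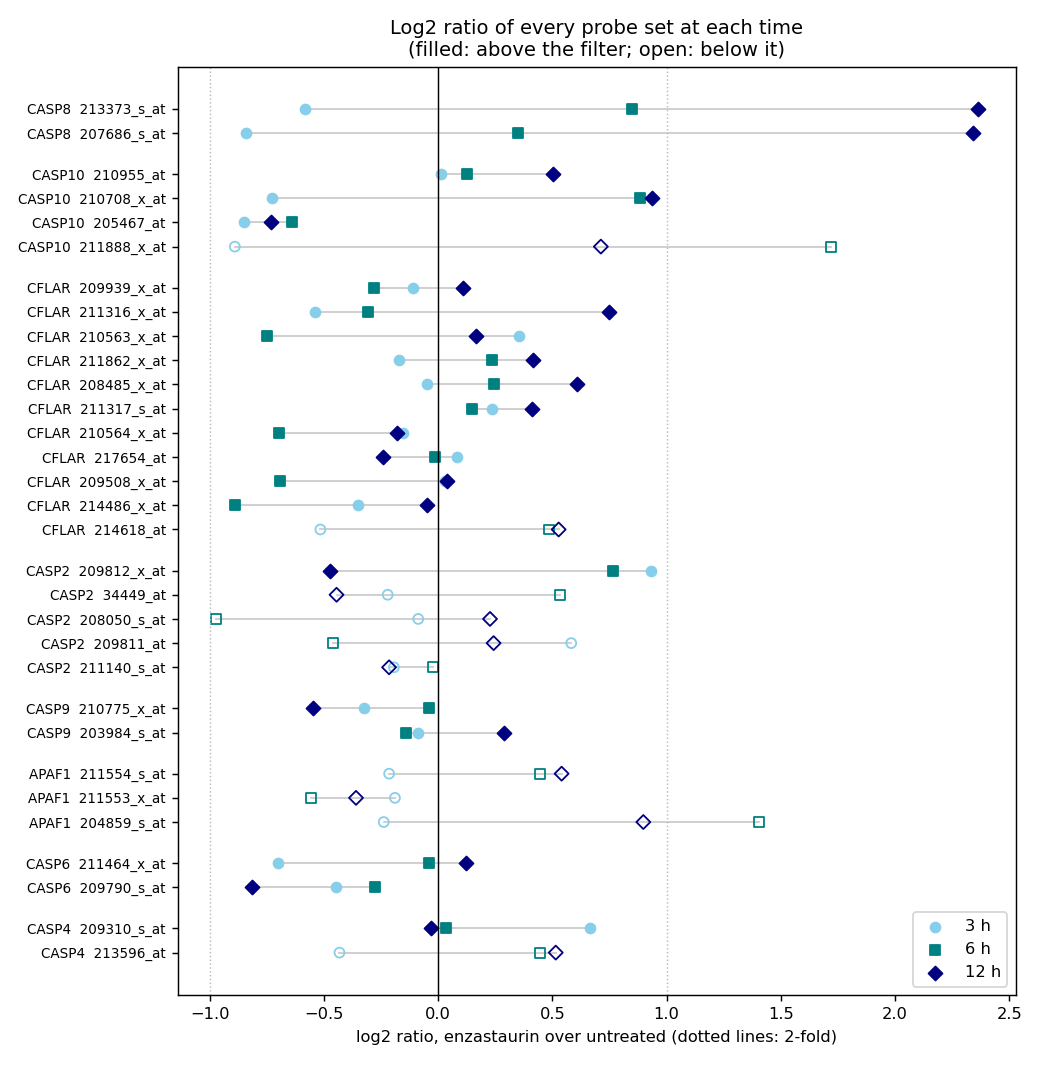
Log2 ratio of enzastaurin over untreated cells at 3, 6 and 12 h for each of the 31 probe sets, grouped by gene, filled where above the filter and open where below. The 12 h values of CASP8, 2.36 and 2.34, are the highest, and each of the other 7 genes has probe sets on both sides of 0 at 12 h.

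Start-site windows from RefSeq were found for 7 of the 8 genes, 14 windows in all, 3 of them for CASP8. Each was searched over the 250 bases before the start, on both strands, and an overlap between motifs was allowed. The GAS motif TTCNNNGAA was found in 1 window, the CASP8 one shown above, and in 6.57 percent of all 35116 windows. The AP-1 motif TGANTCA, in capitals here, was found in 1 further CASP8 window and 1 CFLAR window, and also in 6.57 percent of all windows. Both stretches are from GRCh38.p14, plus strand, chr2:201260464-201260493 for CASP8 and chr2:201132610-201132639 for CFLAR:
CASP8 inner start: tctagtgtttgTGACTCAggagtttcgaaa
CFLAR inner start: aatatggtcctTGAATCAacatcacctgag

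The Sp1 box GGGCGG was present in 9 of the 14 windows, at least 1 for each of the 7 genes, and in 42.6 percent of all windows. The ISRE core, GAAA and GAAA with 2 free bases between them (3.02 percent of all windows), the ATF4 and CHOP element TGATGNAAN (3.13), the E-box CACGTG (6.34), the FOXO motif TGTTTAC (2.98) and the E2F motif TTTCGCGC or TTTGGCGC (0.968) matched none of the 14. A match describes the letters in the window and was not tied to the expression values.

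The genes whose log2 intensity over the 6 arrays was most like that of CASP8, among 6838, were GNPTAB (Pearson r = 0.99), which encodes part of the enzyme that marks lysosomal hydrolases for transport, and CUL2 (0.99), the scaffold of a ubiquitin ligase. GNPTAB had 1106, 1060 and 957 in untreated cells and 982, 1205 and 1516 in enzastaurin cells, and CUL2 had 201, 194 and 150.3 and then 143, 250.2 and 349. Both were lower with enzastaurin at 3 h and higher at 6 h and 12 h, over a narrower range than CASP8. The same search named GDF11 and CLTA for CASP10, ANP32A and RAB11B for CFLAR, GOT1 and UQCRQ for CASP2, MTR and DNAJC10 for CASP9, NAB1 and FMR1 for CASP6, and KDM4A and SMG9 for CASP4. Their r lay between 0.967 and 0.994, and they are the highest values picked from all genes over 6 arrays, so they describe these arrays alone. Between members, r was 0.77 for CASP8 with CASP10, 0.73 for CASP10 with CFLAR and 0.30 for CASP8 with CFLAR, on the same arrays.

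Other pathway genes came from 6 lists. These hold 60 genes, 51 of them on the array under 1 symbol, and 38 were tested. For the mean over the 3 times 1 of the 38 passed, where 0.0585 percent of all genes did. For the slope 1 of the 38 passed, where 1.43 percent did. The lists were chosen with earlier results of these data known, so these shares lend no support to the genes that passed. Among 8 tested death receptors, ligands and adaptors none passed either test. Their median log2 ratios were 0.08, -0.40 and -0.67 at 3, 6 and 12 h, beside -0.04, 0.06 and -0.18 over all genes tested. The receptor FAS, which recruits CASP8, had 125, 122 and 94.1 in untreated cells and 86.2, 194 and 236 in enzastaurin cells. Its log2 ratios were -0.54, 0.67 and 1.33, the sign order of CASP8. Each of its 4 probe sets was below 0 at 3 h and above 0 at 6 h and 12 h. As for CASP8, the array of each pair with more ribosomal RNA signal had less FAS, and the part of this was not tested. The share of all probe sets with this sign order was not counted. The FAS slope was 0.93 (SE 0.38, adjusted p = 0.260 in limma). FADD, the adaptor between FAS and CASP8, had ratios of 0.30, -0.63 and -1.06, and TNFRSF1A, a receptor of tumour necrosis factor, had -0.07, -0.42 and -1.06.

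Among 6 tested PIDDosome and CARD adaptors, PYCARD (ASC), the inflammasome adaptor that recruits CASP1, passed the slope test downward (-1.55, SE 0.41, adjusted p = 0.0181 in limma). It had 65.5, 90.9 and 163 in untreated cells and 137, 56.2 and 40.1 in enzastaurin cells at 3, 6 and 12 h. The enzastaurin array was thus the higher of the pair at 3 h and the lower at 6 h and 12 h, opposite to CASP8. Its values of 56.2 and 40.1 lay below the filter level of 63.3. At each time, the array of the pair with more ribosomal RNA signal had more PYCARD, and the part of this was not tested. Among the settings compared for both genes, the PYCARD call ended where that of CASP8 did. Adjusted p in limma was 0.336 for equal medians of the kept genes, 0.164 for quantile normalization and 0.481 for the finite prior. None of the other 5 adaptors passed. RIPK2 had a mean log2 ratio of 0.16 and PIDD1, which builds the complex that activates CASP2, -0.11.

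Among 10 tested caspase substrates and nucleases, LMNB1, a nuclear lamin and caspase substrate, passed as lower over the 3 times (mean log2 ratio -2.48, SE 0.36, n = 3, adjusted p = 0.0388 in limma) and the rest did not. The LMNB1 call ended with equal medians of all probe sets (adjusted p = 0.0511), with no filter (0.0795), with 70 percent of probe sets kept (0.0893), without the intensity trend (0.168) and without the time block (0.428). It also ended without the 6 h pair (0.861) and without the 12 h pair (0.643), while without the 3 h pair (9.70e-05) and with the ribosomal RNA covariate (1.35e-08) it passed. PARP1, the DNA repair enzyme cut in apoptosis, had -0.20, -0.52 and -0.92, and LMNA had 0.96, 0.25 and -0.37. None of the 4 tested IAP genes and antagonists passed either test. None of the 9 tested genes in the list of cytochrome c, apoptosome and mitochondrial factors did. BIRC5 (survivin) had -0.28, -0.52 and -0.89, BIRC2 a mean of 0.16 and DIABLO, which antagonises IAPs, -0.13. CYCS, which encodes cytochrome c, had a mean log2 ratio of -0.04 (SE 0.15). In the list that holds CYCS, the largest mean ratios were those of PHLDA3, at -1.47 (SE 0.43, adjusted p = 0.492 in limma), HSPA4 at -0.52 and ENDOG at 0.30. CASP1, the one other caspase tested, had -0.16, 0.20 and 0.48.

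**Figure D5:**
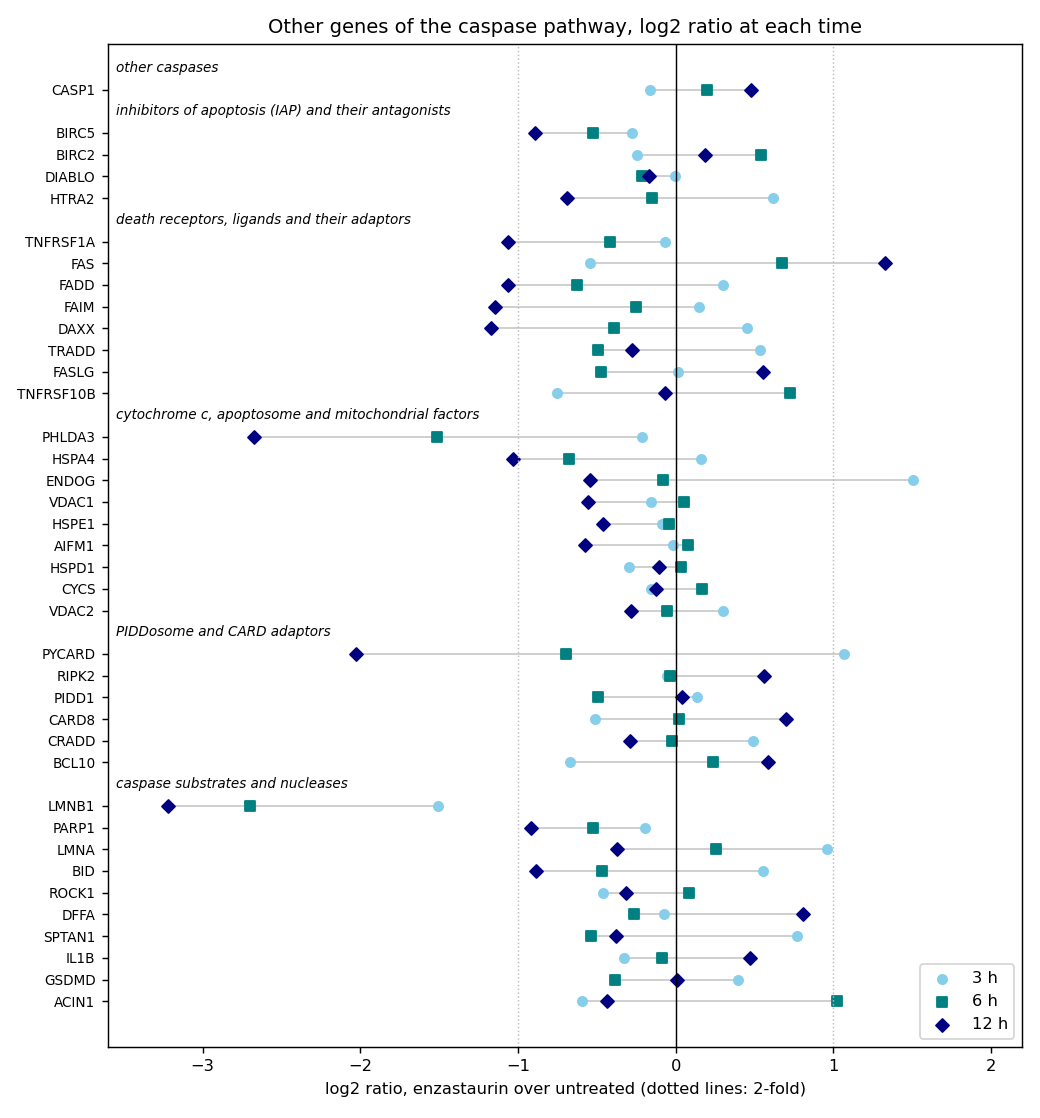
Log2 ratio of enzastaurin over untreated cells at 3, 6 and 12 h for the 38 tested genes of the 6 pathway lists. FAS runs from -0.54 to 1.33 with time, while PYCARD runs from 1.07 to -2.03 and LMNB1 lies below 0 at all 3 times.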

How the data were processed

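The authors deposited linear MAS5 intensity values, per the submitters' processing notes, for 22277 probe sets on 6 arrays. No source used here gives the version or scaling target, and no detection call was used. The authors' scaling was kept. Intensities were floored at 1 and log2 transformed. The brighter 50 percent of probe sets by mean log2 value were kept (geometric mean of 63.3 or more), with the brightest probe set for each gene, leaving 6838 genes. The platform annotation named probe sets, and 19052 of 19064 were matched by gene identifier to RefSeq (GRCh38.p14), whose symbol was then used.

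The treatment effect (time point as a block, 2 residual degrees of freedom, prior of 9.26) and the slope of the effect on log2 hours (1 residual degree, infinite prior) were fitted in limma 3.58.1 (R 4.3.3, eBayes with an intensity trend), with Benjamini-Hochberg adjustment over all genes and a threshold of 0.05. Slope intervals use the normal distribution. The spread behind the p-values is that of these arrays alone and may be technical. Both fits were tested on simulated data, where the slope fit kept its error rate only with equal variances of all genes, so a finite prior was added as an alternative. Single times have 1 array on each side and no test. The number of arrays limits the precision.

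Named genes were all 8 members, pathway genes past a test or with the 3 largest mean ratios in a list, and the 2 genes most like each member. The members and lists were chosen with earlier results of these data known, and the CASP8 slope was among them. FAS probe sets, CYCS and ratios at single probe sets were singled out after their values were seen. Alternatives covered scaling, low values, filter, probe sets, variance prior, time points, block and a covariate.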

Additional observations from a re-analysis of the deposited data

Results flagged for a closer look

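In the slope fit, the enzastaurin effect on CASP8 differed between 3, 6 and 12 h, at 1.47 per doubling of hours (SE 0.35, adjusted p = 0.00525 in limma). This fit had an infinite prior, and on simulated data with unequal variances it made more false calls than its threshold allows. The CASP8 slope was known from earlier results of these data when the members were chosen. At each time, the array of the pair with more ribosomal RNA signal had less CASP8, and the part of this was not tested for the slope. The enzastaurin array was lower at 3 h and higher at 6 h and 12 h on both CASP8 probe sets. The call was lost under 3 of the alternatives run for the gene. It was also lost on both CASP8 probe sets when every probe set was tested on its own without the filter. No treatment and time had more than 1 array, so no array could be set against others of its kind.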

How the results depend on the processing

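Of 180 values of the 7 tested members under alternative settings, 172 kept their direction and their side of the threshold. Only the CASP8 slope passed in the main fit, and several settings, such as the filter, left the ratios of most members unchanged. This count is therefore no measure of robustness. The CASP8 slope did not pass with equal medians of kept genes (1.56), quantile normalization (1.55) and the finite prior added after seeing the data (1.47), and the CASP8 mean ratio passed without the 3 h pair (1.60). Outside these 180, neither CASP8 probe set passed for the slope when every probe set was tested alone without the filter (1.47 and 1.59). The sign turned for CASP4 (-0.00061) and CASP6 (0.0395) without the 3 h pair and, with the median over kept probe sets, for the CASP9 slope (0.0385) and the CFLAR mean ratio (0.24). Slope calls over all genes numbered 98, but 167 when all probe sets had equal medians, 151 without a filter, 7 with quantile normalization, and 0 in limma with equal medians of kept genes (675 at an unadjusted p under 0.05) and with the finite prior (521). Treatment calls numbered 4, but 1 when all probe sets had equal medians, without a filter or with 70 percent kept, 2 without the time block, 74 with the ribosomal RNA covariate and 247 without the 3 h pair. They numbered 0 in limma without the 6 h pair (169 at an unadjusted p under 0.05), without the 12 h pair (134) and without the intensity trend (360). The cause was not tested. All comparisons rest on 1 array for each treatment and time.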
